A study of Homo sapiens with 40 samples.

Results

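The mRNAs that encode proteins of the small (40S) ribosomal subunit were followed through immunoprecipitates, sucrose gradients and knockdowns of HEK293 cells. They were the 28 symbols RPSA, RPS2, RPS3, RPS3A, RPS4X, RPS6, RPS7, RPS9, RPS10, RPS12, RPS13, RPS14, RPS15, RPS15A, RPS16, RPS18, RPS19, RPS20, RPS21, RPS23, RPS24, RPS25, RPS26, RPS27, RPS27A, RPS28, RPS29 and FAU, chosen by name from 55765 gene symbols. By place in the subunit, 12 encode head proteins (RPS3, RPS10, RPS12, RPS15, RPS16, RPS18, RPS19, RPS20, RPS25, RPS27A, RPS28 and RPS29) and the other 16 encode proteins of the body and platform. All 28 passed the filter on low counts in each of the 3 experiments. The choice followed no rule on measured values, but it was made with earlier results of these data known.

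The 40S subunit binds the mRNA, scans for the start codon and decodes it, and every one of its proteins is needed in equal number. Most vertebrate ribosomal protein mRNAs start with a short run of pyrimidines, the terminal oligopyrimidine (TOP) tract, and cells move these mRNAs together between polysomes and ribosome-poor particles when growth signals change. The DEAD-box helicase eIF4A1 works in cap-dependent initiation with eIF4G, its paralogue eIF4A2 and the helicase DDX6 were studied here as partners of the Ccr4-Not deadenylase complex, CNOT1 is the scaffold of that complex, and the TNRC6 proteins link it to Argonaute and miRNAs.

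HEK293, an established human embryonic kidney line, was the source of all 40 poly(A)-selected libraries in 12 groups. For RNA immunoprecipitation (RIP), RNA was sequenced from IPs with antibodies to endogenous eIF4A1, eIF4A2 or DDX6 and from total RNA set aside from the lysates (n = 3 per group), and no control-antibody IP was analysed here. For the gradients, cells that had received control siRNA or CNOT1 siRNA gave input RNA, pooled subpolysomal fractions and pooled polysomal fractions (n = 4 per group), and in a separate experiment total RNA came from cells with control siRNA or with siRNAs to both TNRC6A and TNRC6B (n = 2 per group). Each target was hit by 1 siRNA, all cells were of 1 line, and the labels number the replicates without saying that they were separate cultures, so that p-values measure the spread between these libraries, which may be technical.

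Counts per library ran from 15.4 M to 46.0 M. The line's neurofilament and vimentin mRNAs were present in every library (NEFM 197 to 6045, NEFL 66.1 to 1386 and VIM 105 to 676 CPM, a gene's counts scaled to a common library total), while PTPRC of leukocytes and ALB of hepatocytes stayed at or below 0.400 CPM. CNOT1 was at 672 CPM on average in control input and 39.6 after CNOT1 siRNA, and TNRC6A and TNRC6B averaged 183 and 70.3 CPM with control siRNA and 52.6 and 22.0 after their knockdown. In 2 polysomal libraries CNOT1 went against the label. Its level was 28.3 CPM in replicate 3 of the polysomal libraries labelled control siRNA, against 469.9 to 501 in the other 3, and in replicate 3 of those labelled CNOT1 siRNA it was at 631 CPM, where the other 3 had at most 31.6. Whether these 2 libraries had been exchanged was not tested, and both were kept under their labels. The counts and medians over the 28 members in polysomal comparisons, and the values of most members described there, are also given without them. Lists of other mRNAs, counts by place in the subunit, and shares and medians of all genes are given with them alone.

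The mRNA start is the feature that these genes are best known to share, so the first 20 bases of the annotated mRNA are shown for the members the results turn on, and for RPS4X and RPS7, which lacked the tract. Sequences are from GENCODE 44 on GRCh37, written 5′ to 3′, and capitals mark the pyrimidine run.
RPSA (chr3:39448211-39448230, plus strand): CTTTTCCgtgctacctgcag
RPS2 (chr16:2014808-2014827, minus strand): CTTCTTTTCCgacaaaacac
RPS3A (chr4:152020780-152020799, plus strand): CCCTTTTggctctctgacca
RPS12 (chr6:133135708-133135727, plus strand): CTCTTTCCCTgccgccgccg
RPS15 (chr19:1438395-1438414, plus strand): caaagcgatCTCTTCTgagg
RPS19 (chr19:42364325-42364344, plus strand): CCCTTTCCCCTggctggcag
RPS21 (chr20:60962159-60962178, plus strand): CCTTTCTCTCTCgcgcgcgg
RPS29 (chr14:50053079-50053098, minus strand): CTTCCTTTTacctcgttgca
FAU (chr11:64889587-64889606, minus strand): CTCTTTCTCgactccatctt
RPS4X (chrX:71497079-71497098, minus strand): aatttctacgcgcaccggaa
RPS7 (chr2:3622850-3622869, plus strand): ctcgcgctgtttccgcctct
A run was counted where a C within the first 10 bases was followed by at least 4 bases that were each C or T, read on the mRNA strand alone. It was found in 26 of 28 members, and in 23 of them it began at the first base. Of 17685 genes with an annotated coding mRNA, 20.7% held such a run and 4.71% held it at the first base. Among 48 large subunit ribosomal protein mRNAs the counts were 41 and 35. RPS15, RPS26 and RPS28 held the run behind other bases, and the annotated start may differ from the start used in these cells.

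The members were also short. Their median coding sequence was 145.5 codons (56 for RPS29 to 295 for RPSA) against 440.0 for all annotated coding genes, and their median 5′UTR was 40.0 bases against 135. Members have processed pseudogenes, and the rows named as their pseudogenes held at most 3.46% as many counts as the member itself (RPS2) and 0.62% or less for the rest. Reads that fit both a member and a pseudogene may be missing from both rows, so these percentages cannot show how many the members lost. Exons of RPS10, FAU and RPS15A are overlapped on the same strand by RPS10-NUDT3, SYVN1 and the unnamed gene ENSG00000260342, so their counts are uncertain, since the counter may leave out reads that fit both genes. RPS3A, RPS6, RPS23, RPS25, RPS27A and RPS28 overlap a gene on the opposite strand, and the strand setting of the counting was not given in the sources used here.

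Levels were compared between genes as CPM per kilobase of coding sequence. In control siRNA input, RPS4X, the X-linked copy of a protein of the subunit body, was highest at 5124 ± 187 (SD, n = 4), followed by RPS18 at 4543 ± 210.2 and RPS27 at 4228 ± 347. RPS27 and the next, RPS24 at 4134 ± 173, differed by less than their spread. RPSA stood at 1420.4 ± 67.8 and RPS21 at 1325 ± 124, which overlapped within their SDs. FAU, which encodes RPS30 fused to a ubiquitin-like protein, stood at 523 ± 54.3, and RPS10 was lowest at 86.9 ± 6.98. RPS4X was also highest and RPS10 lowest per kilobase in RIP total RNA and in control total RNA of the TNRC6 experiment. Exons of RPS10 and FAU are overlapped on the same strand in every library. Whether uncounted reads lowered their places was not tested. As a share of all counts the 28 mRNAs made up 2.92% ± 0.35 of RIP total RNA (SD, n = 3) and 2.73% ± 0.09 of control siRNA input (n = 4). CPM is relative to the other genes of a library, so fewer cells, less RNA per cell and more RNA of other genes cannot be told apart.

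To ask how much of these mRNAs each helicase carried, the IPs were each set against RIP total RNA, and these 3 comparisons share the same total RNA libraries. In the eIF4A1 IP 14 of the 28 members were lower and 1, RPS29, was higher than in total RNA, where 26.5% of all 17474 genes tested were lower and 26.1% higher (edgeR, FDR below 0.05). The members' median log2 fold change was -0.60 against 0.04 for all genes. Body and platform mRNAs were lower in 10 of 16 and head mRNAs in 4 of 12. RPS29, a small zinc-binding protein of the head, stood at 312, 308 and 171 CPM in total RNA and 435, 659 and 416 in the eIF4A1 IP. The groups did not overlap, and the mRNA was 1.91-fold higher (log2 fold change 0.93 ± 0.28 (SE), FDR = 0.0129).

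The deepest falls in the eIF4A1 IP were those of RPS15 and RPS3A. RPS15, a head protein near the decoding site, was at 1002, 1110.0 and 459 CPM in total RNA and 263, 439.7 and 146 in the IP, 3.03-fold lower (log2 fold change -1.60 ± 0.43 (SE), FDR = 0.00666). RPS3A of the subunit body, next to it in size of change, went from 2329.7, 2458 and 2174 to 727, 1163 and 904 CPM (log2 fold change -1.32 ± 0.22 (SE), FDR = 0.000241). For neither gene did the groups overlap. FAU, RPS3 and RPS6, the substrate of the S6 kinases, were among the other 12 that fell, with log2 fold changes of -1.19, -0.96 and -0.94. RPS21 was not called, at 734, 717 and 370.3 CPM in total RNA and 596, 936 and 546 in the IP (log2 fold change 0.19 ± 0.30, FDR = 0.617), and the groups overlapped. Same-numbered RIP libraries deviated together, and with the replicate number as a block 20 members were lower in the eIF4A1 IP, the 14 and RPS7, RPS10, RPS18, RPS20, RPS23 and RPS27A. The third total RNA library is replicate 3 in its title and replicate 2 in its description, and the blocked fits of the IPs rest on the title. Shares of all genes in the IP comparisons are from fits without the block. The lower count also rested on single libraries, with 9 members without total RNA replicate 2 and 8 without eIF4A1 IP replicate 1, and RPS29 was not called without total RNA replicate 3 (FDR = 0.0567) or eIF4A1 IP replicate 2 (FDR = 0.0759).

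In the eIF4A2 IP 22 of 28 members were lower and 0 higher than in total RNA, against 25.8% and 24.5% of all genes. DESeq2 also called 0 higher, and 0 members were higher at an unadjusted p below 0.05 in either tool. The members' median log2 fold change was -1.23 and that of all genes 0.01. RPS15 fell most, to 119, 142 and 80.8 CPM, 7.52-fold below total RNA (log2 fold change -2.91 ± 0.45 (SE), FDR = 0.000142). RPS19, the head protein most often mutated in Diamond-Blackfan anaemia, went from 1449.8, 1629 and 1061 CPM in total RNA to 321, 388 and 244 in the IP, 4.34-fold lower (log2 fold change -2.12 ± 0.29 (SE), FDR = 4.98e-05). All 3 IP libraries were below all 3 total RNA libraries for both genes.

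The 6 members that were not called in the eIF4A2 IP were RPS28, RPS29, RPSA, RPS2, RPS21 and RPS27. RPS29 had the highest log2 fold change of the 28, 0.17 ± 0.28 (FDR = 0.641), at 256, 325 and 308 CPM. RPS21 was at 312, 439 and 352 CPM, with 1 total RNA library inside the range of the IP (log2 fold change -0.72 ± 0.30, FDR = 0.0617). With the replicate block RPS21 was lower (-0.69, FDR = 0.00613), as were RPS2 (FDR = 0.0385) and RPS27 (FDR = 0.00057), which gave 25 in all.

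In the DDX6 IP 25 of the 28 members were not called. RPS29 was higher and RPS15 and FAU were lower, that is 1 and 2 of 28 members, against 22.7% and 23.3% of all genes, and the median log2 fold changes were 0.02 for the members and 0.01 for all genes. RPS29 reached 526, 938 and 528 CPM, above every total RNA library (2.52-fold, log2 fold change 1.33 ± 0.28 (SE), FDR = 0.00189). FAU went from 389, 473 and 298 CPM in total RNA to 202, 259 and 186 in the IP (log2 fold change -0.84 ± 0.18 (SE), FDR = 0.00232), with no overlap. RPS15 stood at 385, 504 and 208 CPM in the IP, where the highest library exceeded the lowest of total RNA (log2 fold change -1.23 ± 0.42 (SE), FDR = 0.0291).

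RPS21, which the study classed as bound by DDX6 only, was at 726, 1282 and 711 CPM in the DDX6 IP. It was not called here (log2 fold change 0.58 ± 0.30, FDR = 0.134). With the replicate block it was called higher (FDR = 0.0204), as were RPSA (FDR = 0.0192), RPS28 (FDR = 0.0169) and RPS29, 4 members in all, and RPS24 joined the members called lower (FDR = 0.0241). The call of RPS15 was lost without total RNA replicate 1 or 2 or without DDX6 IP replicate 1 or 3 (FDR = 0.0607 to 0.106), leaving 1 member lower, and 2 members were higher without DDX6 IP replicate 1. The plot of log2 fold changes in the 3 IPs sets these values side by side.

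**Figure D1:**
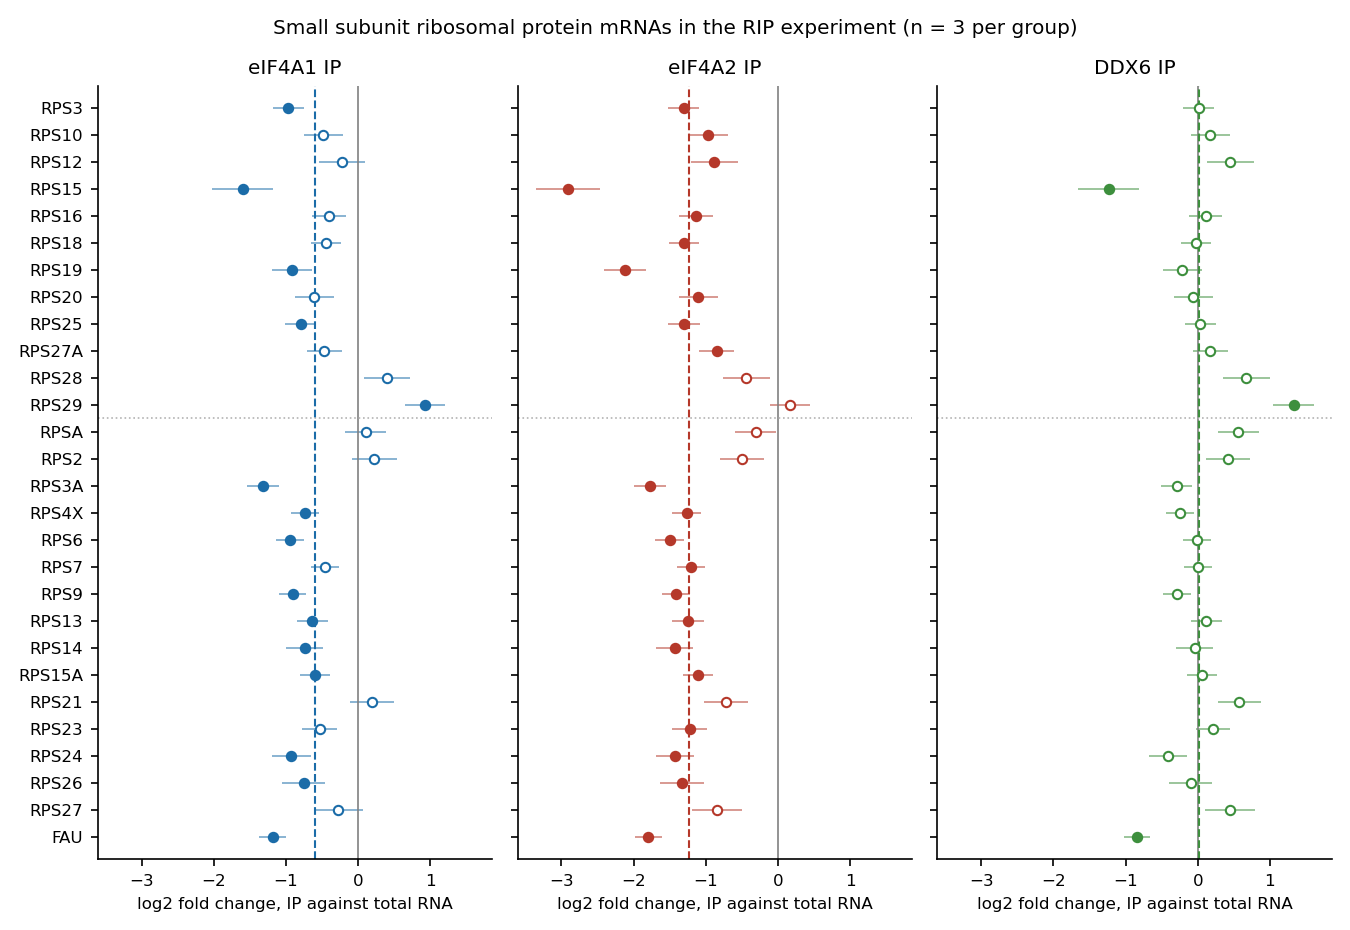
Log2 fold change of each of the 28 mRNAs in the eIF4A1, eIF4A2 and DDX6 IPs against RIP total RNA (x axis, edgeR estimate with SE; n = 3 per group). Filled points have an FDR below 0.05, dashed lines are the members' medians (-0.60, -1.23 and 0.02), and the dotted line separates head from body and platform proteins; RPS15 lies farthest left and RPS29 farthest right in each panel.

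The IPs were also set against each other, in 3 comparisons that share IP libraries. Of the 28 members 27 were lower in the eIF4A2 IP than in the DDX6 IP and 0 were higher, where 11.3% of all genes were lower and 9.82% higher. DESeq2 called 28 lower and 0 higher, and 0 were higher at an unadjusted p below 0.05. The members' log2 fold changes lay between -1.91 and -0.87 around a median of -1.24, beside a median of all genes within 0.01 of 0. RPS19 stood at 1022, 1647 and 907 CPM with DDX6 and 321, 388 and 244 with eIF4A2, 3.75-fold lower (log2 fold change -1.91 ± 0.28 (SE), FDR = 0.00223). RPS15 was at 385, 504 and 208 against 119, 142 and 80.8 CPM (log2 fold change -1.68 ± 0.43 (SE), FDR = 0.0165). RPS21 was at 726, 1282 and 711 against 312, 439 and 352 CPM (log2 fold change -1.30 ± 0.31 (SE), FDR = 0.0117).

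The libraries of both IPs did not overlap for any of RPS19, RPS15 and RPS21. RPS2, a protein of the mRNA entry channel, was the member not called (log2 fold change -0.92 ± 0.31, FDR = 0.0502), and with the replicate block it was (FDR = 0.00276), which made 28. The count fell to 16 without eIF4A2 IP replicate 1 and to 15 without DDX6 IP replicate 2, and RPS15 and RPS21 were called in neither. Without eIF4A2 IP replicate 3 RPS15 was not called either (FDR = 0.0576). Large subunit mRNAs were lower in 46 and higher in 1 of 48 (median -1.34), and 20 other TOP mRNAs in 13 and 0 (median -0.80). Of 29 mitochondrial small subunit mRNAs 14 were lower (median -0.59), and of 22 assembly factors of the small subunit 4 were lower (median -0.34).

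Between the eIF4A paralogues edgeR called 0 members lower and 0 higher in the eIF4A2 IP than in the eIF4A1 IP, where 0.0858% and 0.973% of all genes were called. All 28 log2 fold changes were negative (median -0.59, all genes -0.02). At an unadjusted p below 0.05, 18 members were lower and 0 higher, beside 1469 and 1647 of all 17474 genes. DESeq2 called 4 lower and 0 higher. With the replicate block 24 members were lower. The shares of all genes called by DESeq2 and with the block are not given here. RPS21 stood at 596, 936 and 546 CPM with eIF4A1 and 312, 439 and 352 with eIF4A2, which did not overlap (log2 fold change -0.91 ± 0.30, FDR = 0.168; with the block -0.88, FDR = 0.0109). In all, 1 member was called lower without eIF4A1 IP replicate 1 and 2 were with library totals alone. The unadjusted count fell to 4 without eIF4A1 IP replicate 2 (median -0.41) and to 11 without eIF4A2 IP replicate 1 (median -0.58).

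Between DDX6 and eIF4A1 the members leaned toward DDX6 without a call. In all, 0 members were called higher and 0 lower with DDX6 than with eIF4A1 (0.0801% and 0.0114% of all genes). All 28 log2 fold changes were positive (median 0.63, all genes -0.01). At an unadjusted p below 0.05, 16 members were higher and 0 lower, beside 1341 and 1097 of all 17474 genes. DESeq2 called 6 higher and 0 lower, and the replicate block 16 and 0, and their shares of all genes are not given here. Single libraries moved these values: without DDX6 IP replicate 2 the median was 0.28, with 26 positive and 6 at an unadjusted p below 0.05, and without eIF4A1 IP replicate 1 or 3 that count was 8. It was 24, with a median of 0.87, without eIF4A1 IP replicate 2. RPS21 stood at 726, 1282 and 711 CPM with DDX6 and 596, 936 and 546 with eIF4A1, and the libraries overlapped (log2 fold change 0.39 ± 0.30, FDR = 0.59; with the block 0.38, FDR = 0.213).

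The gradients asked how the mRNAs were distributed between ribosome-poor and ribosome-rich fractions, and every comparison of that experiment draws on the same 24 libraries. In control siRNA cells the 28 mRNAs made up 7.24% ± 0.62 of counts in subpolysomal RNA and 2.18% ± 0.49 in polysomal RNA (SD, n = 4), where the library labelled replicate 3 was at 1.45% and the other 3 at 2.33% to 2.48%. Of the members 26 were lower and 1, FAU, was higher in polysomal RNA, against 37.0% and 34.8% of 16776 genes tested, and the median log2 fold change was -1.61 (all genes -0.02). Leaving out the replicate 3 polysomal libraries of both siRNAs gave 25 and 1 members and a median of -1.43. Head mRNAs were lower in 11 of 12 and body and platform mRNAs in 15 of 16.

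RPS2 had the largest fall, from 4816, 6209.9, 9026 and 7931 CPM in subpolysomal RNA to 1077, 964, 582 and 855 in polysomal RNA (8.04-fold, log2 fold change -3.01 ± 0.18 (SE), FDR = 4.27e-13). RPSA, which lies near the mRNA exit site and is also known as the laminin receptor, went from 3787, 5180.5, 4029 and 4028 to 570.4, 646, 405 and 622 CPM (7.59-fold, log2 fold change -2.92 ± 0.18 (SE), FDR = 8.44e-13). RPS21 went from 619, 694, 1196 and 868 to 357, 297, 128 and 244 CPM (3.29-fold, log2 fold change -1.72 ± 0.22 (SE), FDR = 2.09e-07). The fractions did not overlap for any of the 3 genes, and in each the lowest polysomal value was that of the library labelled control replicate 3. Without both replicate 3 libraries the log2 fold changes were -2.84, -2.78 and -1.48.

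FAU was the exception in direction, at 111, 122, 256 and 197 CPM in subpolysomal and 419, 324, 166 and 228 in polysomal RNA, with overlapping libraries (log2 fold change 0.73 ± 0.26 (SE), FDR = 0.0136; without both replicate 3 libraries 0.93, FDR = 0.00205). Its call was lost with upper quartile factors (FDR = 0.0946), in a fit of the compared libraries alone (FDR = 0.108), and without control subpolysomal replicate 1 (FDR = 0.0574) or 2 (FDR = 0.0511) or polysomal replicate 1 (FDR = 0.0701), when 0 members were higher. RPS15 was not called, with a log2 fold change of -0.33 ± 0.24 (FDR = 0.218) and 473, 491, 979 and 806 CPM in subpolysomal against 764, 638, 300.1 and 485 in polysomal RNA (-0.11 without both replicate 3 libraries, FDR = 0.661). RPS26, which lies at the mRNA exit, was called at -0.42 (FDR = 0.0211) but not without both replicate 3 libraries (-0.21, FDR = 0.0852).

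Large subunit mRNAs were lower in polysomal RNA in 46 and higher in 1 of 48 (median log2 fold change -1.24), and other TOP mRNAs lower in 13 and higher in 4 of 20 (median -0.56). Assembly factors of the small subunit, which act in the nucleolus and cytoplasm to build it, were higher in 18 and lower in 1 of 22 (median 0.77), and mitochondrial small subunit mRNAs, which encode the proteins of the mitochondrion's own ribosome, in 18 and 2 of 29 (median 0.59).

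After CNOT1 siRNA the same comparison gave 20 members lower and 1, FAU, higher in polysomal RNA (34.7% and 34.1% of all genes), and the median log2 fold change was -0.60 (all genes -0.01). Leaving out both replicate 3 polysomal libraries gave 21 and 1 members and a median of -0.66. RPS12 of the head fell most, from 2042, 2034, 1526 and 1838 CPM in subpolysomal RNA to 335, 409, 454 and 411 in polysomal RNA (4.62-fold, log2 fold change -2.21 ± 0.18 (SE), FDR = 7.85e-11). RPS29 went from 805, 614, 679.7 and 662 to 123, 165, 171 and 141 CPM (4.59-fold, log2 fold change -2.20 ± 0.19 (SE), FDR = 4.44e-10). RPS21 went from 493, 397, 607 and 558 to 197, 234, 217 and 180.4 CPM (2.48-fold, log2 fold change -1.31 ± 0.22 (SE), FDR = 1.15e-05).

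FAU was higher, at 88.1, 73.1, 156 and 124 CPM in subpolysomal and 253, 271, 212 and 185 in polysomal RNA (log2 fold change 1.06 ± 0.26 (SE), FDR = 0.000804). For RPS12, RPS29, RPS21 and FAU the fractions did not overlap, and without both replicate 3 libraries their log2 fold changes were -2.26, -2.26, -1.32 and 1.11. The members not called were RPS15, RPS4X, RPS7, RPS9, RPS14, RPS24 and RPS26, with log2 fold changes from -0.32 to 0.19, and RPS24 was called without both replicate 3 libraries (-0.41, FDR = 0.00138). Large subunit mRNAs were lower in 24 and higher in 2 of 48 (median -0.39), and assembly factors higher in 18 of 22 and lower in 1 (median 0.98).

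**Figure D2:**
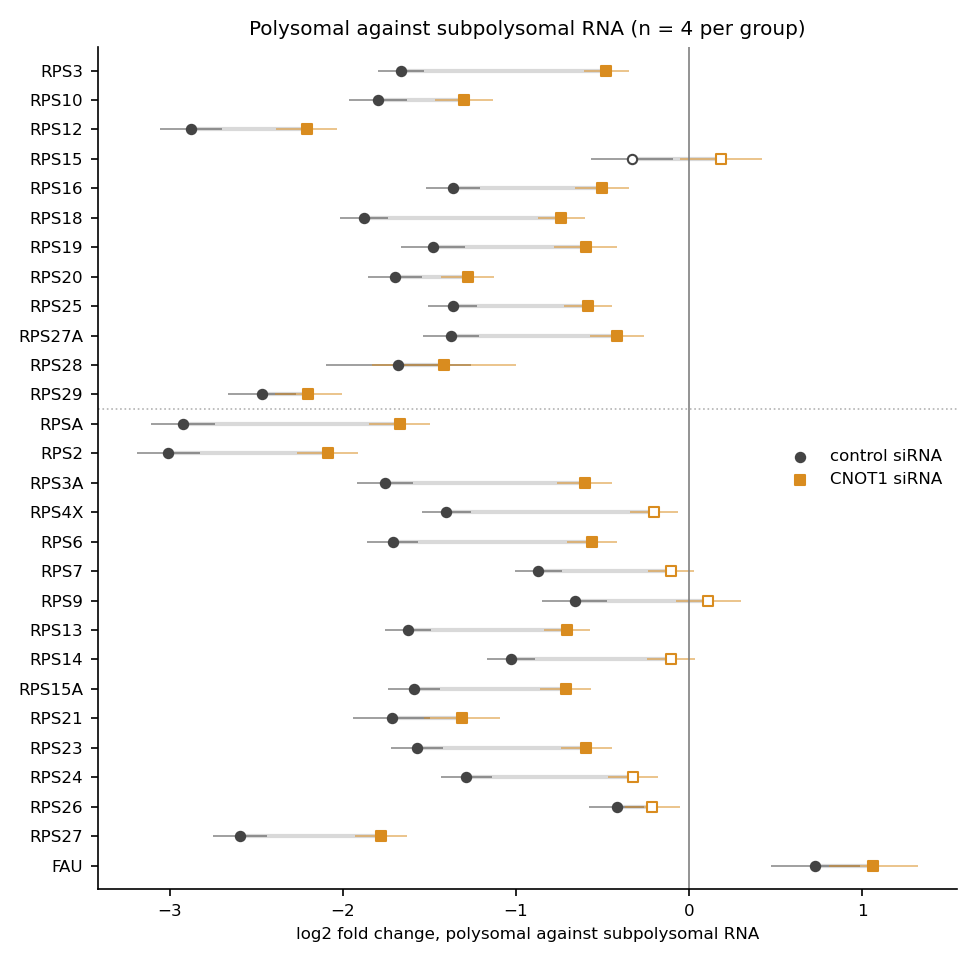
Log2 fold change of polysomal against subpolysomal RNA for the 28 mRNAs (x axis, edgeR estimate with SE; n = 4 per group) with control siRNA (circles) and CNOT1 siRNA (squares), filled where the FDR is below 0.05. All gradient libraries are included, those labelled polysomal replicate 3 too, and in every row the square lies to the right of the circle. FAU is the mRNA at the far right and RPS2, RPSA and RPS12 lie at the left. Without both replicate 3 libraries RPS29 was at -2.22 with control and -2.26 with CNOT1 siRNA, and RPS26 was at -0.21 with each.

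CNOT1 knockdown was then read within each kind of RNA, where positive values mean higher with CNOT1 siRNA. In input RNA 26 of 28 members were lower with CNOT1 siRNA and 0 higher, against 15.6% and 13.4% of all genes. DESeq2 gave 26 and 0, and 0 were higher at an unadjusted p below 0.05. The members moved as a tight set, with log2 fold changes from -0.93 to -0.40 around a median of -0.66 (all genes -0.03) and an SD among members of 0.12, and their share of counts went from 2.73% ± 0.09 to 1.84% ± 0.09 (SD, n = 4).

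RPSA fell most, from 1345, 1219.7, 1215 and 1266 CPM with control siRNA to 713, 677, 584 and 683 with CNOT1 siRNA (1.9-fold, log2 fold change -0.93 ± 0.17 (SE), FDR = 0.00673). RPS29 went from 385, 324, 362 and 341 to 224, 185, 195 and 207 CPM (1.74-fold, log2 fold change -0.80 ± 0.19 (SE), FDR = 0.00708). RPS21 went from 370.0, 311, 349 and 305 to 238, 188, 196 and 233 CPM (1.56-fold, log2 fold change -0.64 ± 0.22 (SE), FDR = 0.0304). The libraries did not overlap for any of the 3. RPS28 and FAU were not called (-0.40 ± 0.41 and -0.40 ± 0.25). Same-numbered input libraries deviated together, and with the replicate block RPS9 and RPS15 were no longer called (FDR = 0.053 and 0.0601), which left 24. The call of RPS21 was lost with library totals (FDR = 0.0632) and without control input replicate 1 or 3 or CNOT1 siRNA input replicate 2 or 3 (FDR = 0.0646 to 0.0777). Polysomal libraries share the fit and its spread with the input libraries. Without both polysomal libraries of replicate 3 the input FDR was 0.0037 for RPS21 and 4.4e-05 for RPSA.

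Among other mRNAs in the same input libraries 42 of 48 large subunit mRNAs and 12 of 20 other TOP mRNAs were lower and 0 higher (medians -0.61 and -0.38). Assembly factors of the small subunit were higher in 9 of 22 and lower in 0 (median 0.33), and mitochondrial small subunit mRNAs were higher in 3 and lower in 4 of 29 (median 0.04).

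In subpolysomal RNA 26 members were lower with CNOT1 siRNA and 0 higher, against 19.1% and 13.0% of all genes, with a median log2 fold change of -1.02 (all genes -0.07). DESeq2 gave 27 and 0, and 0 were higher at an unadjusted p below 0.05. Their share of counts went from 7.24% ± 0.62 to 4.02% ± 0.24 (SD, n = 4). RPSA went from 3787, 5180.5, 4029 and 4028 CPM with control siRNA to 1991, 2081, 1048 and 1474 with CNOT1 siRNA (2.58-fold, log2 fold change -1.37 ± 0.17 (SE), FDR = 5.27e-06). RPS4X went from 8395, 11125, 9129 and 8979 to 4329, 4125, 3134 and 3503 CPM (2.49-fold, log2 fold change -1.32 ± 0.14 (SE), FDR = 5.97e-07). RPS21 went from 619, 694, 1196 and 868 to 493, 397, 607 and 558 CPM (1.64-fold, log2 fold change -0.72 ± 0.22 (SE), FDR = 0.0141).

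In subpolysomal RNA all 4 CNOT1 siRNA libraries were below all 4 control libraries for RPSA, RPS4X and RPS21. The call of RPS21 was lost with library totals (FDR = 0.131), without control subpolysomal replicate 3 (FDR = 0.0789) and without CNOT1 siRNA subpolysomal replicate 2 (FDR = 0.0531). RPS28 and FAU were again not called (-0.52 ± 0.41 and -0.64 ± 0.26). Polysomal libraries share the fit and its spread, and without both of replicate 3 FAU was called lower (FDR = 0.0335). RPS28 was still not called there (FDR = 0.308), and RPS21 had an FDR of 0.00152. Large subunit mRNAs were lower in 45 of 48 and other TOP mRNAs in 18 of 20, with 0 higher (medians -0.98 and -0.85), while 3 of 22 assembly factors were lower and 2 higher (median -0.02) and 3 of 29 mitochondrial small subunit mRNAs lower and 5 higher (median -0.02).

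In polysomal RNA edgeR called 0 members lower and 0 higher with CNOT1 siRNA, and 0% of all genes either way. DESeq2 also called 0, and at an unadjusted p below 0.05 edgeR gave 0 and DESeq2 2 members, both lower. Without both polysomal libraries of replicate 3, 18 members were lower and 0 higher. The 0% of all genes is from the fit with both libraries, so it is no background for counts without them. The median log2 fold change was -0.21 with them and -0.41 without them. Leaving out the library labelled control polysomal replicate 3 alone gave 13 members lower. RPS21 stood at 357, 297, 128 and 244 CPM with control siRNA and 197, 234, 217 and 180.4 with CNOT1 siRNA, with overlap that came from control replicate 3 alone (log2 fold change -0.31 ± 0.22, FDR = 0.677; without both libraries -0.56, FDR = 0.0307). The members' share of counts was 2.18% ± 0.49 and 1.97% ± 0.17 (SD, n = 4), and without the replicate 3 libraries control siRNA libraries held 2.33% to 2.48% and CNOT1 siRNA libraries 1.72% to 2.04%.

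**Figure D3:**
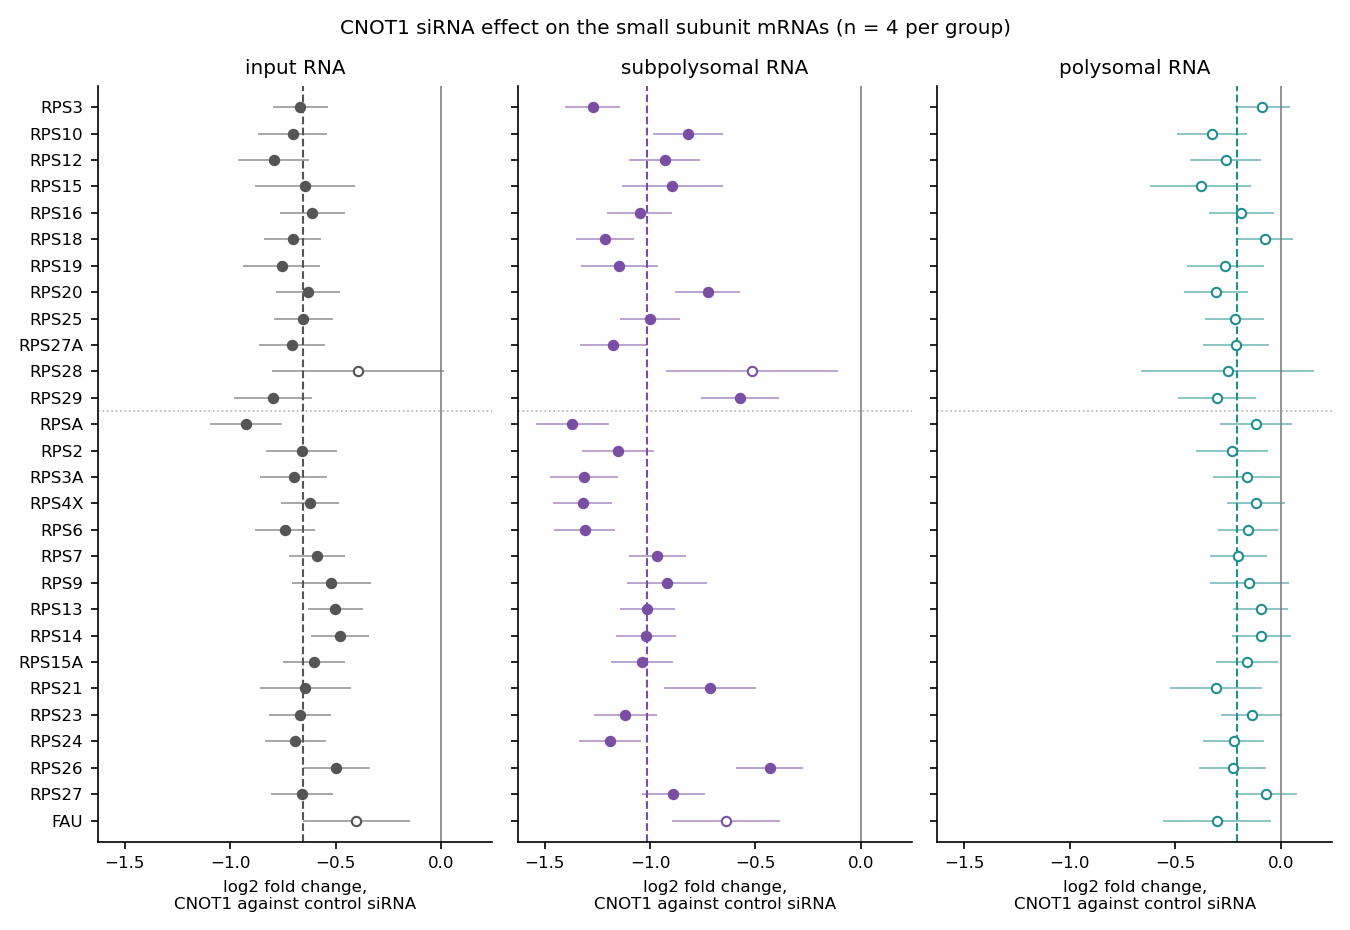
Log2 fold change of the 28 mRNAs with CNOT1 against control siRNA (x axis, edgeR estimate with SE; n = 4 per group) in input, subpolysomal and polysomal RNA, filled where the FDR is below 0.05, with dashed lines at the members' medians (-0.66, -1.02 and -0.21). All 28 points lie left of 0 in each panel, 26 are filled in the input and subpolysomal panels and 0 in the polysomal panel.

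Whether the CNOT1 siRNA effect differed between the fractions was tested as a change of the polysomal/subpolysomal ratio, the polysomal effect less the subpolysomal one. This change was positive and called in 18 of 28 members and negative in 0, against 3.26% and 2.40% of all genes, with a median of 0.87 on the log2 scale (all genes 0.05). DESeq2 gave 18 and 0, and 0 were negative at an unadjusted p below 0.05 in either tool. Without both replicate 3 libraries 18 members were called and the median was 0.64. The count was 7 in a fit of the 4 compared groups alone, with a median of 0.87. Body and platform mRNAs were called in 12 of 16 and head mRNAs in 6 of 12.

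RPSA had the largest change, 1.25 ± 0.24 (SE, FDR = 0.00312). From the values above it had a polysomal/subpolysomal log2 fold change of -2.92 with control siRNA and -1.67 with CNOT1 siRNA. RPS4X changed by 1.20 ± 0.20 (FDR = 0.000798), from -1.40 to -0.20. In polysomal RNA RPSA stood at 570.4, 646, 405 and 622 CPM with control siRNA and 429, 513, 630.4 and 496 with CNOT1 siRNA. RPS4X stood there at 3470.0, 4075, 2576 and 4116 CPM with control siRNA and 2733, 3237, 3759 and 3396 with CNOT1 siRNA. For both genes the subpolysomal libraries did not overlap, and the polysomal libraries overlapped through the libraries labelled replicate 3 alone: among the other 3 of each siRNA all CNOT1 siRNA libraries were below all control libraries. RPS21 changed by 0.41 ± 0.31 and was not called (FDR = 0.468). Without both replicate 3 libraries the 3 changes were 1.01, 1.00 and 0.16.

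**Figure D4:**
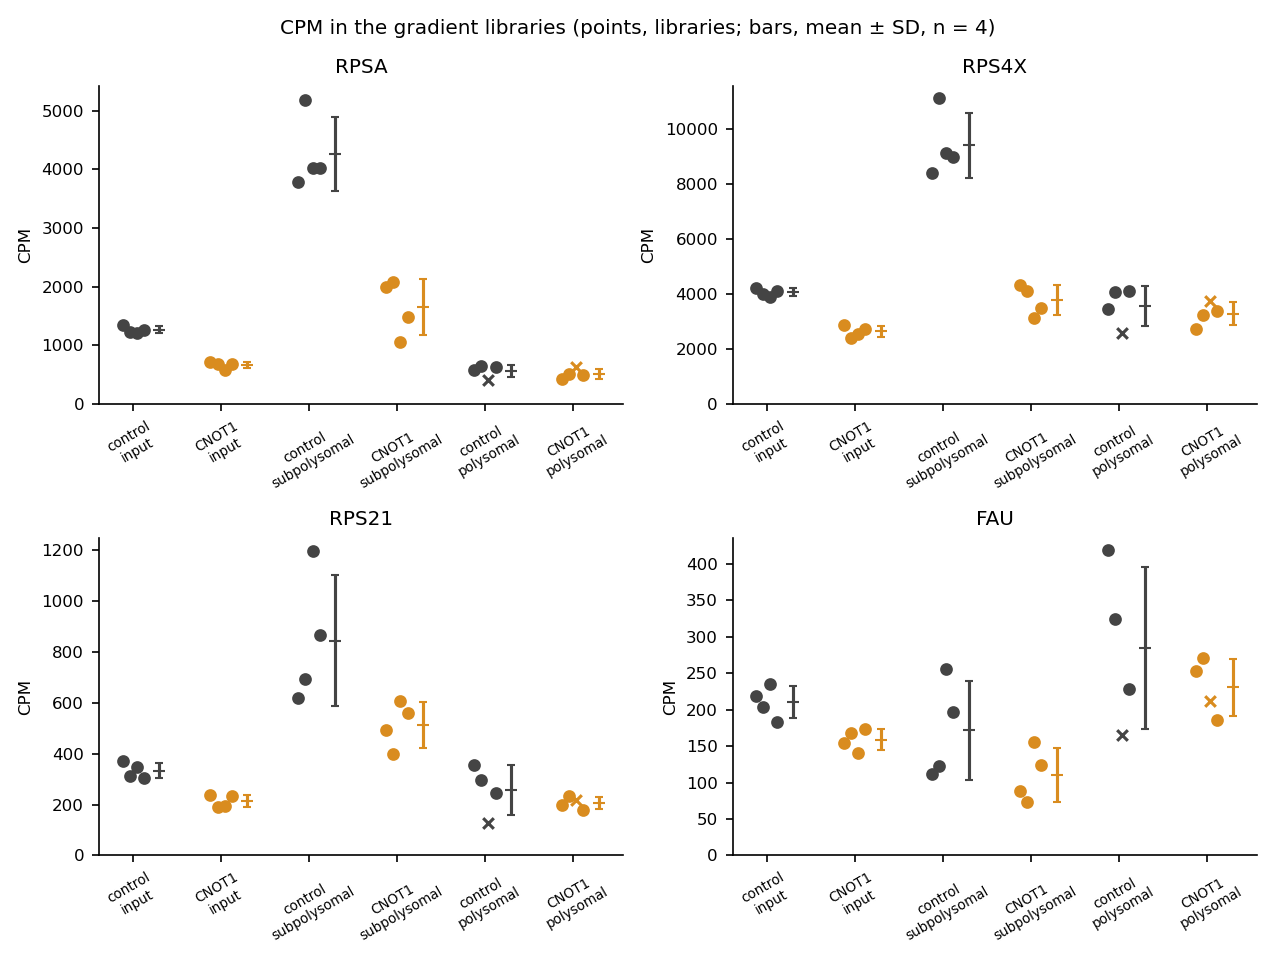
CPM of RPSA, RPS4X, RPS21 and FAU in the 24 gradient libraries (y axis, linear from 0; x axis, the 6 groups; points are libraries, bars mean ± SD, n = 4), with crosses for the polysomal libraries labelled replicate 3. Control subpolysomal libraries are the highest group for RPSA, RPS4X and RPS21, and FAU is highest in the control polysomal group.

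Among members, the change of the ratio went with coding length. The 5 members with the longest coding sequences, RPSA, RPS2, RPS3A, RPS4X and RPS6 (249 to 295 codons), were all called, at 0.92 to 1.25. Of the 5 with the shortest, RPS26, RPS27, RPS21, RPS28 and RPS29 (56 to 115 codons), only RPS27 was called, and the values ran from 0.21 to 0.82. Over the 28 members Spearman's rho between codons and the change was 0.71, and it was -0.74 between codons and the CNOT1 siRNA effect in subpolysomal RNA, -0.23 in input and 0.40 in polysomal RNA. Over all genes kept that had an annotated coding length, 12451 of 16776, the same 4 values were 0.14, -0.01, 0.19 and 0.24. They describe those 74.2% of genes alone, as genes without an annotated coding mRNA have no coding length. These are descriptions over genes counted in the same libraries, and coding length was not separated from other features such as read number. Total mRNA length did not always go with it: the mRNA of RPSA had 295 codons in 1140 bases and that of RPS23 143 codons in 3252. RPS10 and RPS20, of 165 and 119 codons, lay low for their length (0.49 and 0.42), and RPS27, of 84, lay high (0.82). Without both replicate 3 libraries the 5 longest ran from 0.71 to 1.01, all called, and the 5 shortest from -0.03 for RPS29 to 0.60 for RPS27, the one called, with RPS26 at -0.00. There RPS10 was at 0.23 and RPS20 at 0.16, and rho was 0.75 for the change and 0.33 in polysomal RNA.

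**Figure D5:**
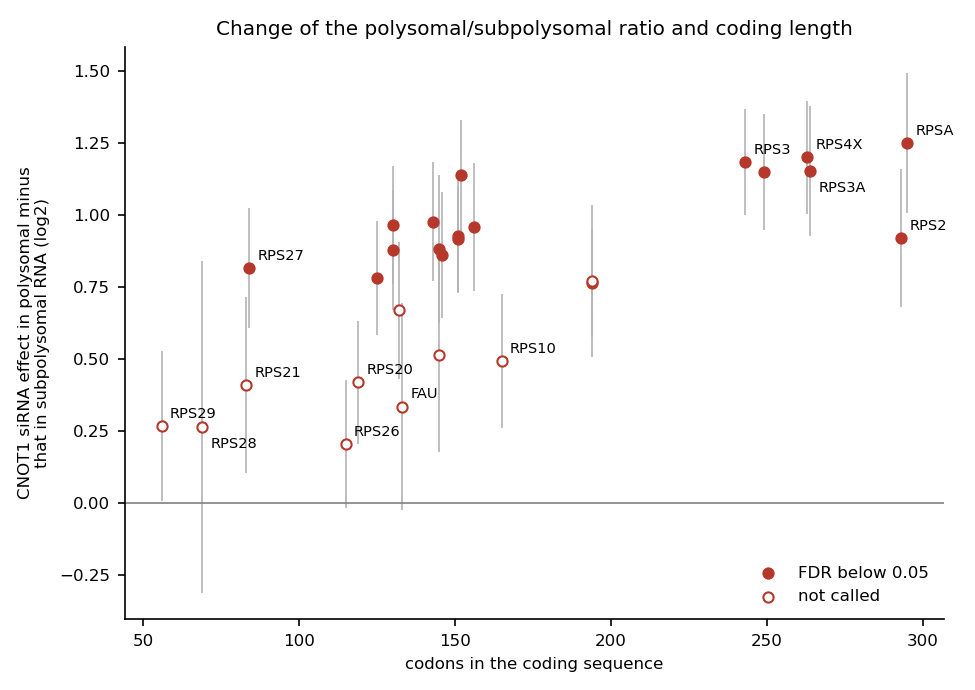
Change of the polysomal/subpolysomal ratio after CNOT1 siRNA (y axis, log2, edgeR estimate with SE) against the number of codons (x axis) for the 28 mRNAs, filled where the FDR is below 0.05. The 6 mRNAs above 200 codons are all filled and lie between 0.92 and 1.25, while RPS26, RPS28 and RPS29 lie at 0.21 to 0.27; all gradient libraries are included, those labelled polysomal replicate 3 too.

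Beside the members, the change of the ratio was called positive in 31 of 48 large subunit mRNAs (median 0.84), 12 of 20 other TOP mRNAs (median 0.72), 1 of 22 assembly factors (median 0.14) and 1 of 29 mitochondrial small subunit mRNAs (median 0.08), and it was called negative in 0, 0, 0 and 1 of them.

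Without a replicate block, knockdown of TNRC6A and TNRC6B left the members without a call. edgeR called 0 of 28 higher and 0 lower in total RNA, and 0% of all 14064 genes either way, and at an unadjusted p below 0.05 both edgeR and DESeq2 gave 0 members. The median log2 fold change was -0.13 (all genes -0.03), with members between -0.34 and 0.44. Same-numbered libraries of this experiment deviated together (r = 0.821), and with a replicate block RPS28 alone was called higher. Without control replicate 1, 5 members were higher at an unadjusted p below 0.05. RPS21 stood at 280.1 and 161 CPM with control siRNA and 229 and 176 with TNRC6A/B siRNA, with overlap (log2 fold change -0.12 ± 0.33, FDR = 1). RPSA, the largest fall in CNOT1 siRNA input, stood at 1832 and 1118 CPM with control siRNA and 1570.4 and 1121 with TNRC6A/B siRNA (-0.13 ± 0.32). The members made up 2.58% ± 0.06 of counts with control siRNA and 2.34% ± 0.19 with TNRC6A/B siRNA (SD, n = 2).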

How the data were processed

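Poly(A)-selected RNA of HEK293 cells was sequenced from stranded TruSeq libraries. The deposited files hold raw counts per gene symbol, which the authors made with bcl2fastq 2.0, TopHat2 alignment to hg19 and htseq-count. A further deposited table of the authors' own comparisons (log2 fold changes, log2 CPM, likelihood ratios, p-values and FDR) was not used. Totals were 15.4 M to 46.0 M counts per library. CPM divide by a library's total over the genes kept in its experiment, scaled by its TMM factor.

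Genes that passed filterByExpr (17474 in the RIP, 16776 in the gradient and 14064 in the TNRC6 experiment) were fitted with edgeR 4.0.16 (limma 3.58.1, R 4.3.3), with 1 fit per experiment, TMM factors, group means and two-sided quasi-likelihood F-tests. FDR is the Benjamini-Hochberg adjustment over all genes kept, and a gene was called below 0.05. The SE of a log2 fold change is its size divided by the square root of F. The fit was tested on simulated data with known fold changes. Annotation was GENCODE 44 on GRCh37, the build of the files.

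The members and the lists set beside them were chosen with earlier results of these data known. Values in every library are given for the 2 members with the largest called increase and the 2 with the largest called decrease in each comparison and for RPS21, which the study had followed by RT-qPCR. RPS29 in the eIF4A2 IP, RPS15 in the control gradients, RPSA after TNRC6A/B siRNA, and RPSA and RPS4X in polysomal RNA were added after their values were seen, as were the other members named with a fold change alone. Same-numbered RIP libraries deviated from their group means together (r = 0.138 to 0.628 over genes in every pair). So did input (0.134 to 0.235), subpolysomal (0.469 to 0.629) and TNRC6 experiment libraries (0.821). Blocked counts and the changed calls of members described are therefore given beside those results. Shares of all genes in the blocked fits are not given. The third RIP total RNA library is numbered 3 in its title and 2 in its description, and the title was used. RLE, upper quartile and no scaling factors, no filter, DESeq2 1.42.0, a replicate block, the compared libraries alone and leaving out each library were tried.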

Additional observations from a re-analysis of the deposited data

Results flagged for a closer look

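The CNOT1 siRNA effect differed between polysomal and subpolysomal RNA in 18 members by the test of the difference itself. The difference was 1.25 on the log2 scale for RPSA and 1.20 for RPS4X, which encodes the X-linked form of a protein of the subunit body.

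Each named member and the summed share of counts were also searched, in the groups of 4, for 1 library that stood far from the other 3. Of 48 groups checked 3 held such a library, and chance alone gives about 1 in 20. RPS12 stood at 674 CPM in CNOT1 siRNA input replicate 1 and at 554 to 566 in the other 3. RPS29 stood at 88.7 CPM in the library labelled control siRNA polysomal replicate 3 and at 212 to 227 in the other 3. The 28 members together took 1.45% of counts in that library and 2.33% to 2.48% in the others, and CNOT1 was at 28.3 CPM there against 469.9 to 501.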

How the results depend on the processing

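No member was called in the opposite direction under any alternative. The replicate block gave 24 members lower in the eIF4A2 than in the eIF4A1 IP, 16 higher in the DDX6 than in the eIF4A1 IP, 4 higher in the DDX6 IP than in total RNA, and 1 (RPS28) higher after TNRC6A/B siRNA. Same-numbered libraries of the TNRC6 experiment deviated together (r = 0.821), though the labels do not say what they share. Without the filter these comparisons of IPs gave 14, 6 and 4 members, DESeq2 gave 4 for the first and 6 for the second, and library totals gave 2 for the first and 4 for the third. Members higher in control polysomal RNA numbered 0 with upper quartile factors and 0 with the compared libraries alone, where the change of the ratio was called in 7. Without both polysomal libraries of replicate 3, 18 members were lower after CNOT1 siRNA in polysomal RNA, and 18 also with the block added, an alternative chosen after seeing the data. The block moved no other count of members by over 1.5 times. Same-numbered control and CNOT1 siRNA polysomal libraries did not deviate together in replicates 1, 2 and 4 (r = -0.02, 0.04 and 0.08). In replicate 3, where CNOT1 went against both labels, r was -0.52.

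Leaving out 1 library gave 0 to 1 members higher and 8 to 19 lower in the eIF4A1 IP, 1 to 2 higher and 1 to 2 lower in the DDX6 IP, 0 to 1 lower in the eIF4A2 than in the eIF4A1 IP and 15 to 28 lower in the eIF4A2 than in the DDX6 IP. It gave 0 to 1 higher in control polysomal RNA and 0 to 13 lower after CNOT1 siRNA in polysomal RNA. In the TNRC6 experiment it left a lone library that was assumed to vary like the other group.

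Library totals in place of TMM factors moved the median of all genes by up to 0.32 (eIF4A2 IP), and the members' median minus that of all genes stayed near its value there (-1.24 and -1.23). The percentage of calls over all genes that were higher rose with them from 49.5 to 67.5 in the eIF4A1 IP, 48.7 to 69.6 in the eIF4A2 IP, 46.6 to 70.1 between eIF4A2 and DDX6 and 40.5 to 80.7 in subpolysomal RNA, and fell from 57.6 to 8.83 for the change of the ratio, where 12 members were called. The cause of these shifts was not tested. The members were counted deeply in every library, and the small number of libraries per group limits these comparisons.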
